A study of Homo sapiens with 2 samples.

Results

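The genes described here encode proteins that sense and repair double-strand breaks in DNA. They are 39 of the 20037 protein-coding genes of the RefSeq table for GRCh38.p14, and they were chosen by name as members of the repair pathways. All 39 symbols were found. Peaks were taken from 2 kb before to 2 kb after the outer bounds of each gene. ATAC-seq, where Tn5 transposase cuts and tags open DNA, had been run on U2OS, a human osteosarcoma cell line in long use, grown in DMEM with serum. The sh-ctrl group was infected with a control short hairpin and the sh-VNGD group with a hairpin against VNGD, the long non-coding RNA Vanguard. Each group was 1 library made from 50000 cells, so no comparison has a replicate check, no test across samples was possible, and each interval below covers counting error only. The knockdown itself cannot be seen in accessibility data.

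More tags were read for sh-ctrl (51628228) than for sh-VNGD (48164322), but the share of repeated tags was 0.56 against 0.35. After repeated positions were removed, 22931980 tags were left for sh-ctrl and 31326715 for sh-VNGD, 1.37 times as many. The part of this difference in repeated tags in the results below was not tested. The measure used throughout is the summit pileup, the number of tags covering the highest point of a peak, as deposited and not scaled for depth. After division by kept tags, the median log2 ratio of sh-VNGD over sh-ctrl at the promoters of all genes was −0.45. Ratios below are therefore given relative to that median, which leaves them equal to the ratio of the unscaled pileups at promoters. Among markers of the labelled cell type, 5 of 7 mesenchymal or osteoblast genes had a promoter peak in both libraries, namely COL1A1 (94 tags in sh-ctrl against 75 in sh-VNGD), RUNX2 (38 and 43), FN1 (31 and 19), COL1A2 (11 and 19) and TWIST1 (12 and 41). VIM and SPARC had none within 1000 bp of their starts. Of the epithelial markers, 3 of 4 had a promoter peak in both libraries, namely EPCAM (139 and 108), CDH1 (127 and 138) and KRT5 (10 and 20). KRT14 had 11 tags in sh-VNGD and no sh-ctrl peak. Peaks in both libraries were also found at 2 of 4 haematopoietic markers, CD3E (112 and 82) and SPI1 (105 and 113), and at 0 of 3 endothelial ones. Markers of the labelled type thus lacked promoter peaks in part while some markers of other types had high ones. The identity of the cells, called U2OS here as labelled, was not tested. The part of these markers in the results below was not tested.

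A broken chromosome is repaired along competing routes. In homologous recombination, the MRE11 complex and its partners trim the broken ends to single strands, RPA coats them, and BRCA2 with its helpers prepares them for copying from the sister chromatid. In non-homologous end joining, the Ku ring holds the ends while a kinase, a nuclease, polymerases and a ligase rejoin them, and 53BP1 with the shieldin complex shields the ends from trimming. Dividing cells of many kinds use these proteins, and U2OS cells are a common model for watching them gather at breaks.

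Starts for 30 of the 39 genes were given in the RefSeq promoter table. The table used here has no start for DNA2, RPA3, NBN, PRKDC, XRCC5, SHLD2, RPA2, SHLD1 and RAD54B, so the outer gene end with the higher pileup served as their promoter. In 16 of the 30 genes (53.3%), another gene started on the opposite strand within 1000 bp, compared with 31.6% of 11296 protein-coding genes that have a table start and a promoter peak in both libraries. The distances ran from 43 bp between LIG4 and ABHD13 to 694 bp between SHLD3 and TRIM23. They were 140 bp for MRE11 and ANKRD49, 145 bp for BRCA2 and ZAR1L, 193 bp for BRCA1 and the non-coding NBR2, and 51 bp for POLL and DPCD. A promoter peak of such a gene lies within 1000 bp of both starts, and its accessibility cannot be divided between the genes.

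The 6 sequences below are the 150 bases before the start of genes whose promoter values recur in the results, 5′ to 3′ on the strand of the gene, from RefSeq on GRCh38.p14. XRCC2 (chr7:152676142-152676291, minus strand) had a lower pileup in sh-VNGD, XRCC3 (chr14:103715452-103715601, minus strand) had the highest promoter pileup of the genes in sh-ctrl, and XRCC6 (chr22:41621145-41621294, plus strand) had equal pileups. XRCC4 (chr5:83077397-83077546, plus strand) and PALB2 (chr16:23641311-23641460, minus strand) fill most of the space up to an opposite start, that of TMEM167A at 153 bp and that of DCTN5 at 156 bp. POLM (chr7:44082531-44082680, minus strand) holds 3 of the motifs. Capitals mark matches to the motifs searched, on either strand.
XRCC2: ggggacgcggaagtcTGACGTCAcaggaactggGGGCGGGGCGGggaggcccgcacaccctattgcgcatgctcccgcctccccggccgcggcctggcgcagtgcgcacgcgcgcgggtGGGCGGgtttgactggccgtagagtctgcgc
XRCC3: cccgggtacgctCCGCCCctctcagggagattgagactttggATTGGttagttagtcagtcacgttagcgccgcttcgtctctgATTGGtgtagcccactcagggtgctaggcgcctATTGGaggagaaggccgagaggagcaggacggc
XRCC4: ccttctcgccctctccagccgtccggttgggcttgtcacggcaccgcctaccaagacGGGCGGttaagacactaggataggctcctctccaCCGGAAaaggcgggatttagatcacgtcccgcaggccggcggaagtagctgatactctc
XRCC6: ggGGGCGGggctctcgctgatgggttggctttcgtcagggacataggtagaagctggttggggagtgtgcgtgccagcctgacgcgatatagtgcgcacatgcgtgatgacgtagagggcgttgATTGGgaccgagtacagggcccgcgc
PALB2: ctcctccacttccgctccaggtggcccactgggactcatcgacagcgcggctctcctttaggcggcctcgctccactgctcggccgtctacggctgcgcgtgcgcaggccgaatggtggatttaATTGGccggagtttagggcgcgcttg
POLM: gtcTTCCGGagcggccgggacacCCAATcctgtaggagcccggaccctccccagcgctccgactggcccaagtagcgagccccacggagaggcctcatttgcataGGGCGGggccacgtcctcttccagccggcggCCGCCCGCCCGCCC

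The capitals show GGGCGG or CCGCCC, the core of the SP1 site, in 5 of these 6 stretches, with 2 overlapping copies in the GGGCGGGGCGG of XRCC2 and 3 in the run at the end of POLM. CCAAT or ATTGG, the NFY box, occurs 3 times before XRCC3. CCGGAA or TTCCGG, the core of ETS factor sites, occurs before XRCC4 and POLM, and TGACGTCA, the cyclic AMP response element (CRE), before XRCC2. Over the 300-base promoters of the 28 genes with a table start within 1000 bp of their peak summit, the SP1 core was found in 20 (71.4%). The share was 45.0% of all 35116 promoters of the table and 73.2% of the 10550 with a peak in both libraries. The ETS core was in 15 of the 28 (53.6%), against 17.2% and 30.5%. The NFY box was also in 15 (53.6%), against 34.6% and 37.8%. The CRE was in 3 (10.7%), against 1.85% and 3.35%, at EXO1, RAD51C and XRCC2. TATAAA, the TATA box, was in 0 of 28 (0.0%), against 11.5% and 5.07%, and the AP-1 site TGANTCA likewise in 0, against 7.71% and 4.23%. TTTGAA, the cell cycle element called CHR, was in 1 (3.57%), at RIF1, against 15.2% and 8.70%. AAGATGGC, the YY1 site, was in 3 (10.7%), at POLL, TP53BP1 and RIF1, against 2.89% and 5.41%. E2F sites (TTTCCCGC, TTTCGCGC, TTTGCCGC or TTTGGCGC) were in 3 (10.7%), at EXO1, XRCC2 and XRCC6, against 3.31% and 5.51%, and the palindromic NRF1 site in 0, against 1.24% and 2.30%. The median GC content was 65.2%, close to the 66.0% of promoters with a peak and above the 58.7% of all promoters. Motif matches overlap one another in places, were searched on both strands, and describe letters, not bound factors.

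All 39 break repair genes had a promoter peak in both libraries, compared with 13907 of 20037 protein-coding genes (69.4%). Promoter pileups of the 39 genes ran from 25 to 210 tags for sh-ctrl (median 97) and from 18 to 215 in sh-VNGD (median 90). The medians over all genes with a ratio were 76 and 75. The median repair gene promoter was thus above the median of all genes in both libraries, and RAD51C and XRCC3 lay at percentiles 99.3 and 99.4 of all genes. The summit lay upstream of the nearest start in 27 of 30 genes, at a median of −74.5 bp in sh-ctrl and −67.5 bp in sh-VNGD. Over all genes 76.1% lay upstream, at a median of −67.5 bp in sh-ctrl. In 30 of 39 genes the summits of the libraries lay within 50 bp of each other.

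**Figure D1:**
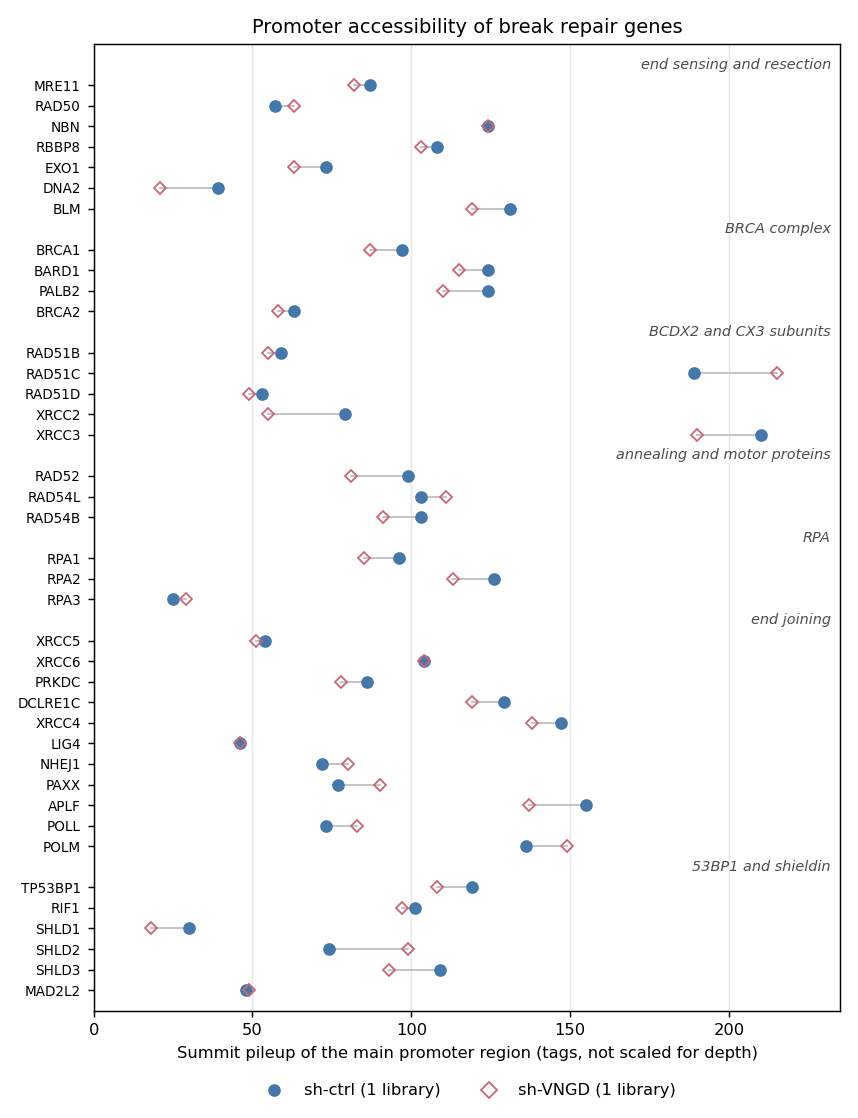
Summit pileup of the main promoter region of each of the 39 genes, in tags not scaled for depth, with genes ordered by role. Filled circles are the sh-ctrl library and open diamonds the sh-VNGD library, 1 library each, and the pairs lie close together over a range from 18 to 215 tags.

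Little separated the libraries at these promoters. The relative log2 ratio was below 0 in 26 genes, above 0 in 10 and exactly 0 in NBN, XRCC6 and LIG4, with a median of −0.11 and quartiles of −0.16 and 0.01. Among all genes 49.8% lay below 0, and the quartiles were −0.18 and 0.19. The ratios of 37 of the 39 genes stayed within 1.5-fold of the median of all genes, as did those of 89.8% of all genes. At least 1.5-fold lower were DNA2 and SHLD1, 2 of 39, beside a background of 3.29% of all genes. None was at least 1.5-fold higher, beside 6.88%. The counting interval lay wholly below the median of all genes for DNA2 and XRCC2, beside 4.26%, and wholly above it for none, beside 4.31%. Both counts of lower genes are near the background.

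The choice of centring matters to these counts. Scaled by kept tags alone, with no centring, 16 genes lay at least 1.5-fold lower in sh-VNGD, when 31.5% of all genes did so, and the median of the 39 was −0.56.

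**Figure D2:**
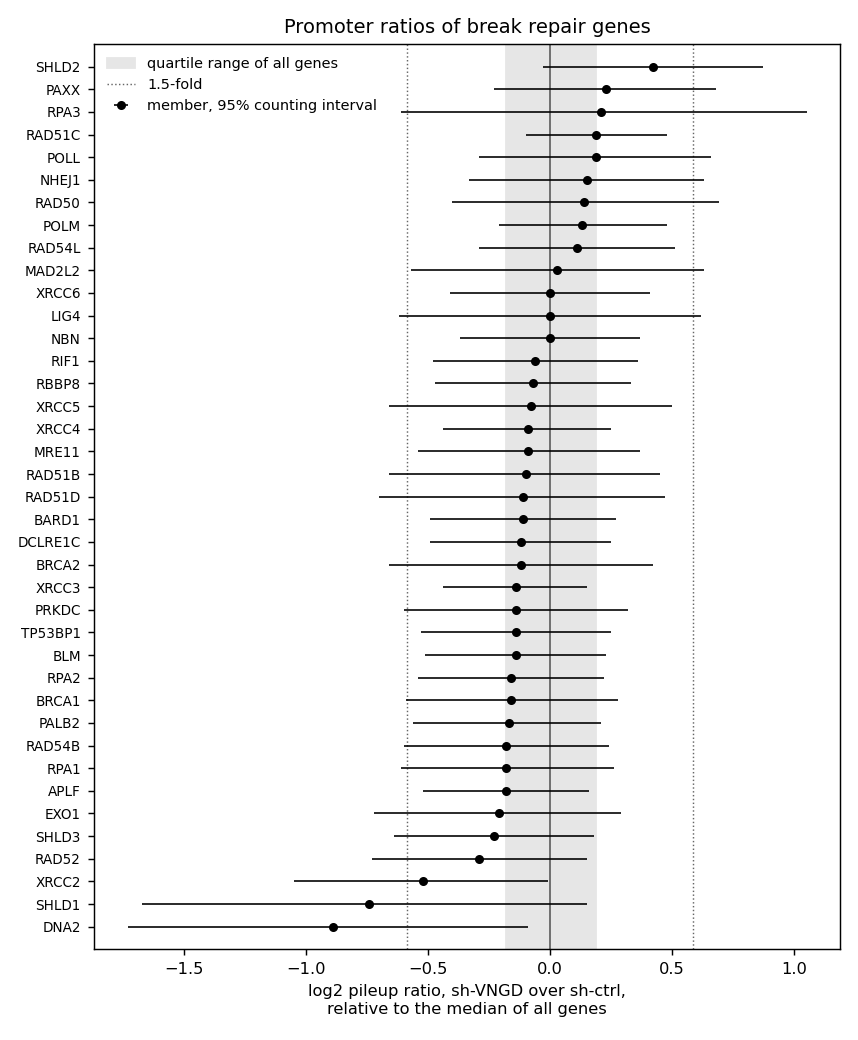
Relative log2 promoter ratio (sh-VNGD over sh-ctrl) of each gene with its 95% counting interval, ordered by ratio. The grey band is the quartile range of all genes (−0.18 to 0.19) and dotted lines mark 1.5-fold, which DNA2 at −0.89 and SHLD1 at −0.74 pass.

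Among the 7 genes of end sensing and resection, the promoters of the MRE11 complex were similar in both libraries. MRE11, the nuclease that opens resection, had 87 tags in sh-ctrl against 82 in sh-VNGD. RAD50, the ATPase that tethers the ends, had 57 and 63. NBN, the subunit that recruits the ATM kinase, had 124 in each. The relative log2 ratios of these genes lay between −0.09 and 0.14, inside the quartile range of all genes.

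RBBP8, which encodes the MRE11 cofactor CtIP, had 2 promoter regions. The outer one held 108 tags in sh-ctrl against 103 in sh-VNGD, and the inner one, near starts further in, 51 and 44. Both ratios were below 0 with intervals spanning it. EXO1, an exonuclease of long-range resection, had 73 and 63 tags, and BLM, the helicase that works with DNA2, had 131 and 119. Neither passed 1.5-fold.

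DNA2, the helicase and nuclease that extends resection, had the lowest ratio of the 39 genes. Its promoter region at chr10:68471447-68472265 had 39 tags in sh-ctrl against 21 in sh-VNGD, a relative log2 ratio of −0.89 (95% interval −1.73 to −0.09). The authors' fold enrichment over local background went from 7.9 to 4.7, which gives −0.65 relative to all genes. Tags in the surrounding 10 kb differed less, at 202 and 185, or −0.28 relative to all genes, and by that measure, added after the data were seen, DNA2 is not past 1.5-fold. A region at its other end held 14 and 16 tags.

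The 4 genes of the BRCA complex all lay slightly below 0, between −0.17 and −0.11, and none passed 1.5-fold. By the sum of pileups over the called peaks of the region, 1 in sh-ctrl and 2 in sh-VNGD, BRCA2 turned to 0.51. BRCA1, a ubiquitin ligase that directs repair towards recombination, had 97 tags in sh-ctrl against 87 in sh-VNGD at the start it shares with NBR2. Its partner BARD1 had 124 and 115. PALB2, which links BRCA1 to BRCA2, had 124 and 110. BRCA2, a mediator of strand exchange, had 63 and 58. The intervals of all 4 spanned 0, the widest being −0.66 to 0.42 for BRCA2.

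The BRCA1 gene model extends to an outer end where NBR1 and non-coding genes also start, and 2 further regions lie there. The region at chr17:43169886-43170570 had 84 tags in sh-ctrl against 79 in sh-VNGD. The region at chr17:43170937-43171394 had 68 and 38, a relative log2 ratio of −0.84 (−1.45 to −0.25). The latter region overlaps NBR1 and lies outside the bounds of BRCA1, whose start next to NBR2 stood at −0.16. BARD1 likewise had a second, lower region beside its promoter, with 34 and 27 tags.

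The next 5 genes encode the subunits of the BCDX2 and CX3 complexes, which assist homologous recombination. RAD51C, found in both complexes, had 189 tags in sh-ctrl against 215 in sh-VNGD, the highest sh-VNGD pileup of the 39 genes, at 0.19 (−0.10 to 0.48). XRCC3, its CX3 partner, had 210 and 190, at −0.14 (−0.44 to 0.15). The order of this pair therefore changed between the libraries, while both intervals spanned 0. RAD51D had 53 and 49 tags. RAD51B had 59 and 55 at its outer end, chr14:67819566-67819949, and no peak lay within 1000 bp of its table starts further in.

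XRCC2, the remaining BCDX2 subunit, had the lowest ratio of these 5 genes. Its promoter, at chr7:152675820-152676384 around the sequence printed above, had 79 tags in sh-ctrl against 55 in sh-VNGD, at −0.52 (−1.05 to −0.01). The upper bound lay at the edge, and the interval no longer excluded 0 with a 500 bp window. The same held with the authors' peaks limited to a −log10 q of at least 5, or to at least 30 tags in either library. Fold enrichment was 10.8 and 8.6, which gives −0.20 relative to all genes.

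Of the annealing and motor proteins, RAD52, which anneals complementary single strands, had 2 promoter regions with opposite signs. The inner one, its main promoter, had 99 tags in sh-ctrl against 81 in sh-VNGD (−0.29, interval −0.73 to 0.15). The outer one, where ERC1 also starts, had 53 and 65 (0.29, −0.25 to 0.85). RAD54L, a motor that drives strand invasion, had 103 and 111, and its relative RAD54B 103 and 91. All of these intervals spanned 0.

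RPA, the trimer that covers single-stranded DNA, had similar promoters for its 2 larger subunits. RPA1 had 96 tags in sh-ctrl against 85 in sh-VNGD, and RPA2 had 126 and 113. The smallest subunit gene, RPA3, had the lowest sh-ctrl pileup of the 39 genes, with 25 and 29 tags at one outer end of its model (0.21, −0.61 to 1.05). Its model overlaps UMAD1, and a region at the UMAD1 start, chr7:7640301-7641316, held 203 and 184 tags. Without a table start for RPA3, which region serves it cannot be told here.

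The 11 end joining genes centred on 0, with a median of 0.00 and a range from −0.18 (APLF) to 0.23 (PAXX), and none passed 1.5-fold. XRCC5 and XRCC6 encode Ku80 and Ku70, the partners in the ring that binds ends first. XRCC5 had 54 tags in sh-ctrl against 51 in sh-VNGD, and XRCC6 had 104 in each. PRKDC, the DNA-dependent kinase that Ku recruits, had 86 and 78 in a region that overlaps MCM4 and lies outside the bounds of PRKDC. A second region, which spans the same end of PRKDC, had 54 and 50. DCLRE1C, the Artemis nuclease that trims ends, had 129 and 119.

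Genes of the ligation step and its scaffolds were as close. XRCC4, the scaffold of the ligase, had 147 tags in sh-ctrl against 138 in sh-VNGD. LIG4, the ligase, had 46 in each at its outer start, the lowest sh-ctrl pileup of the end joining genes, and 32 and 38 at inner starts. NHEJ1, which encodes the XRCC4-like factor XLF, had 72 and 80. The bound of these intervals farthest from 0 was 0.97, at the inner LIG4 region.

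PAXX, a further XRCC4-like factor, had 77 tags in sh-ctrl against 90 in sh-VNGD, at 0.23 (−0.23 to 0.68). The summits lay at −69 bp from the start in sh-ctrl and 283 bp in sh-VNGD. This distance of 352 bp was the largest of the 39 genes, so the ratio compares different positions. The PAXX ratio also depended on the measure: fold enrichment of 5.1 and 7.4 gave 0.63, past 1.5-fold. Tags in the surrounding 10 kb, at 708 and 568, gave −0.47, and the sum of pileups in the region gave −0.54. APLF, a scaffold that binds Ku, had 155 and 137 tags. The gap-filling polymerases POLL and POLM had 73 and 83, and 136 and 149. Further promoter regions of XRCC6 held 39 and 33 tags at chr22:41620244-41620532 and 31 tags in sh-VNGD alone at chr22:41621638-41621887.

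The 6 genes of 53BP1 and shieldin held the widest spread of any role, from −0.74 to 0.42. TP53BP1, which encodes 53BP1, had 119 tags in sh-ctrl against 108 in sh-VNGD in a region that also holds the MAP1A start. A second region beside it, which overlaps MAP1A, had 56 and 54. RIF1, the effector of 53BP1, had 101 and 97. SHLD3, the shieldin subunit that joins MAD2L2, had 109 and 93 in a region around a start shared with TRAPPC13. The summits lay at −659 bp in sh-ctrl and −688 bp in sh-VNGD from that start, close to the opposite start of TRIM23. MAD2L2, the REV7 adaptor, had 48 and 49 at its inner start and 16 and 18 at the outer ones.

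SHLD1 and SHLD2, the other shieldin subunits, differed in opposite directions. SHLD1 had 30 tags in sh-ctrl against 18 in sh-VNGD at chr20:5750193-5750695, the lowest sh-VNGD pileup of the 39 genes, at −0.74 (−1.67 to 0.15). By tags in the surrounding 10 kb, 133 and 164, its ratio turned to 0.15. SHLD2 had 74 and 99 tags at chr10:87094801-87095816, the highest ratio of the 39 genes at 0.42 (−0.03 to 0.87), and 23 and 42 in a further region at chr10:87093933-87094314, at 0.87 (0.10 to 1.67). Both SHLD2 regions overlap GLUD1 and lie within 1000 bp of its start, and the further region lies outside the bounds of SHLD2. Scaled by kept tags alone, SHLD2 stood at −0.03.

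A further 42 break repair genes outside the 39, such as those of ATM signalling, junction resolution and alternative end joining, were as close. In 41 of them both libraries had a promoter peak, and DNTT, the lymphoid end joining polymerase, had a peak in neither. Their median relative ratio was −0.04. They ranged from TOP3A, a topoisomerase that works with BLM, with 27 tags in sh-ctrl against 19 in sh-VNGD (−0.51, −1.44 to 0.39), to MDC1, which reads phosphorylated H2AX, with 24 and 35 (0.54, −0.25 to 1.36). By the fold and by the interval, 0 of 41 lay to either side, against the backgrounds given above.

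Of 613 regions within 2 kb of the 39 genes, 553 touched no start, 539 in gene bodies and 14 in flanks. The gene table has no exons, so intron and exon were not separated. Both libraries had a peak in 189 of the 553 (34.2%, against 40.2% of such regions over all genes), with a median ratio of 0.01 relative to the median of all such regions, which stood at −0.26 after division by kept tags. Of the 189, 23 (12.2%) were at least 1.5-fold below that median, beside a background of 12.1% over all genes, and 13 (6.88%) at least 1.5-fold above, beside 11.1%. The share of lower regions was thus near the background.

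The higher of these regions are described one by one. At least 30 tags in either library were reached by 38 of the 189, in 18 genes. Of these, 15, in 9 genes, were at least 1.5-fold below the median and 1 was above it, where the shares over all genes with the same filter were 21.1% and 10.3%. By unscaled pileup, 8 in 7 genes had at least 2-fold fewer tags in sh-VNGD and 1 had at least 2-fold more, where the shares over all genes were 5.71% and 5.84%. These counts are a description only, because the filter takes regions that are high in 1 library alone: 12 of the 15, and all 8, reached 30 tags in sh-ctrl alone. With a filter on the mean of both libraries, added after the data were seen, 10 of 32 (31.2%) were below, where 20.2% of all regions were. By that filter 6 of the 32 (18.8%) had at least 2-fold fewer tags in sh-VNGD, where 4.92% of all regions did. At least 2-fold more tags were found in 1 (3.12%), where 2.43% of all regions had them. RAD51B, the longest of the genes, held 14 of the 38 regions, and regions of 1 gene are not independent of one another.

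**Figure D3:**
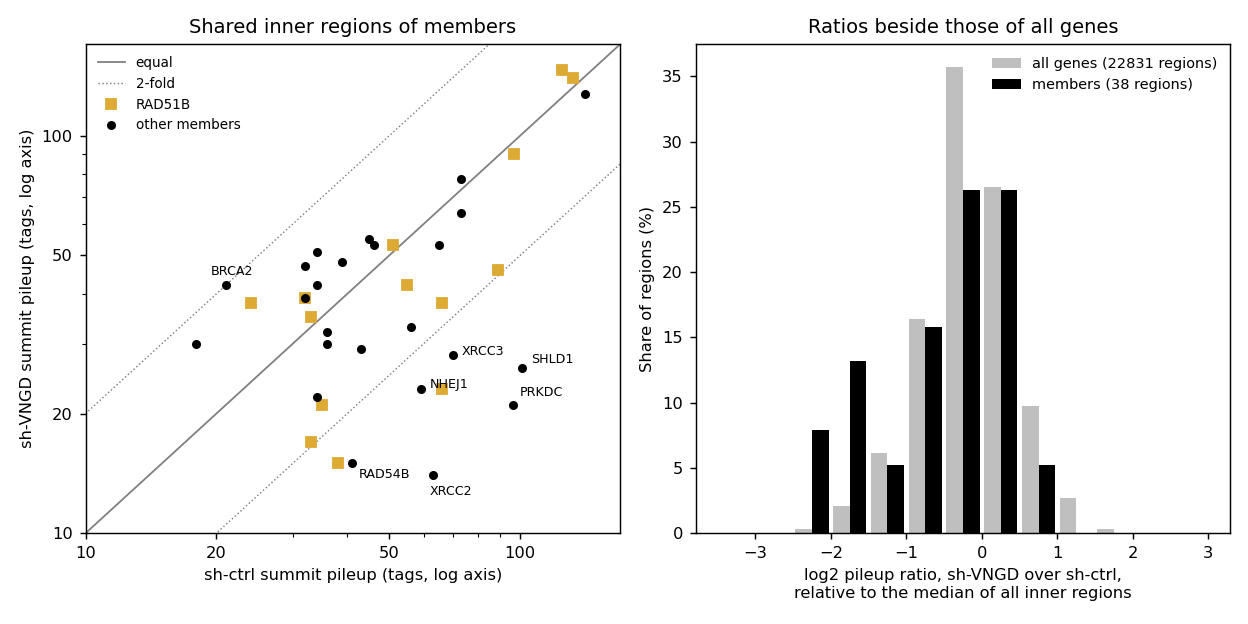
Left, sh-ctrl against sh-VNGD summit pileup (tags, log axes) of the 38 shared regions with at least 30 tags in either library that touch no start, with lines for equal and 2-fold values. Right, share of regions by relative log2 ratio for the 38 regions and for all 22831 such regions, with 8 of the 38 below −1.5, each of which reached 30 tags in sh-ctrl alone.

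The region with the lowest ratio lay in PRKDC, 19.0 kb inside the promoter, at chr8:47941691-47942573. It had 96 tags in sh-ctrl against 21 in sh-VNGD, a relative log2 ratio of −2.39 (−3.14 to −1.69), and fold enrichment of 16.0 and 5.9. A higher PRKDC region, at chr8:47826530-47826959, had 141 and 127 tags (−0.34, −0.70 to 0.01). A lower one, at chr8:47883725-47884020, had 34 and 22 (−0.82, −1.66 to −0.01). So the low region was higher than the PRKDC promoter in sh-ctrl and far below it in sh-VNGD, while the highest PRKDC region was near equal.

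XRCC2 and SHLD1, which also had low promoter ratios, held the next regions. In XRCC2, chr7:152664588-152665088, 11.3 kb from the promoter, had 63 tags in sh-ctrl against 14 in sh-VNGD, at −2.36 (−3.31 to −1.51). In SHLD1, chr20:5844182-5844733, 94.0 kb from the promoter, had 101 and 26, at −2.15 (−2.83 to −1.52). Fold enrichment was 13.2 and 4.0 in the XRCC2 region and 20.9 and 9.3 in the SHLD1 region. The SHLD1 region had more tags than its promoter in both libraries.

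Others with at least 2-fold fewer tags lay in RAD54B, NHEJ1 and XRCC3. The RAD54B region at chr8:94447021-94447962 had 41 tags in sh-ctrl against 15 in sh-VNGD (−1.64, −2.60 to −0.76). The NHEJ1 region at chr2:219142308-219142707 had 59 and 23 (−1.55, −2.31 to −0.83). The XRCC3 region at chr14:103698852-103699347, which also lies in KLC1, had 70 and 28 (−1.51, −2.20 to −0.86). In XRCC3 the fold enrichment was 6.0 in both libraries, since tags in the surrounding 10 kb also differed, at 538 and 193. By fold enrichment it is therefore no low region, unlike those of RAD54B (8.9 and 3.8) and NHEJ1 (15.2 and 6.6).

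In RAD51B the regions of 1 gene went different ways. The regions at chr14:68569899-68570479 (66 tags in sh-ctrl against 23 in sh-VNGD, −1.71) and chr14:68468720-68469752 (38 and 15, −1.53) had at least 2-fold fewer tags. A further 4, at chr14:68255665-68256300 (33 and 17), chr14:68306772-68307748 (89 and 46), chr14:68191604-68192213 (66 and 38) and chr14:68458861-68459461 (35 and 21), lay between −1.15 and −0.93. All 6 of these low regions were between 372.2 and 750.4 kb from the promoter region. Among them lay regions that did not pass the fold, chr14:68397712-68398459 at 578.3 kb (24 and 38, 0.47) and chr14:68565170-68565607 at 745.6 kb (55 and 42, −0.58). The regions at chr14:67868020-67868842 (132 and 140) and chr14:68137694-68138151 (125 and 146), at 48.7 and 318.2 kb, stood at −0.11 and 0.03. Towards the far end, at 849.6 kb, chr14:68669022-68669595 had 97 and 90 tags (−0.30).

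The 2 remaining low regions were flanks of PAXX, at chr9:136994049-136994532 (56 tags in sh-ctrl against 33 in sh-VNGD, −0.96), and of SHLD2, at chr10:87092766-87093056 (43 and 29, −0.76), the latter inside GLUD1. The 1 region above the fold lay in BRCA2, at chr13:32381500-32381919, with 21 and 42 tags, at 0.81 (0.02 to 1.64). That region reached 30 tags in sh-VNGD alone. In 21 of the 39 genes, among them BRCA1, PALB2, MRE11, RAD50, BLM, XRCC4 and RIF1, no shared region of at least 30 tags lay away from starts.

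**Figure D4:**
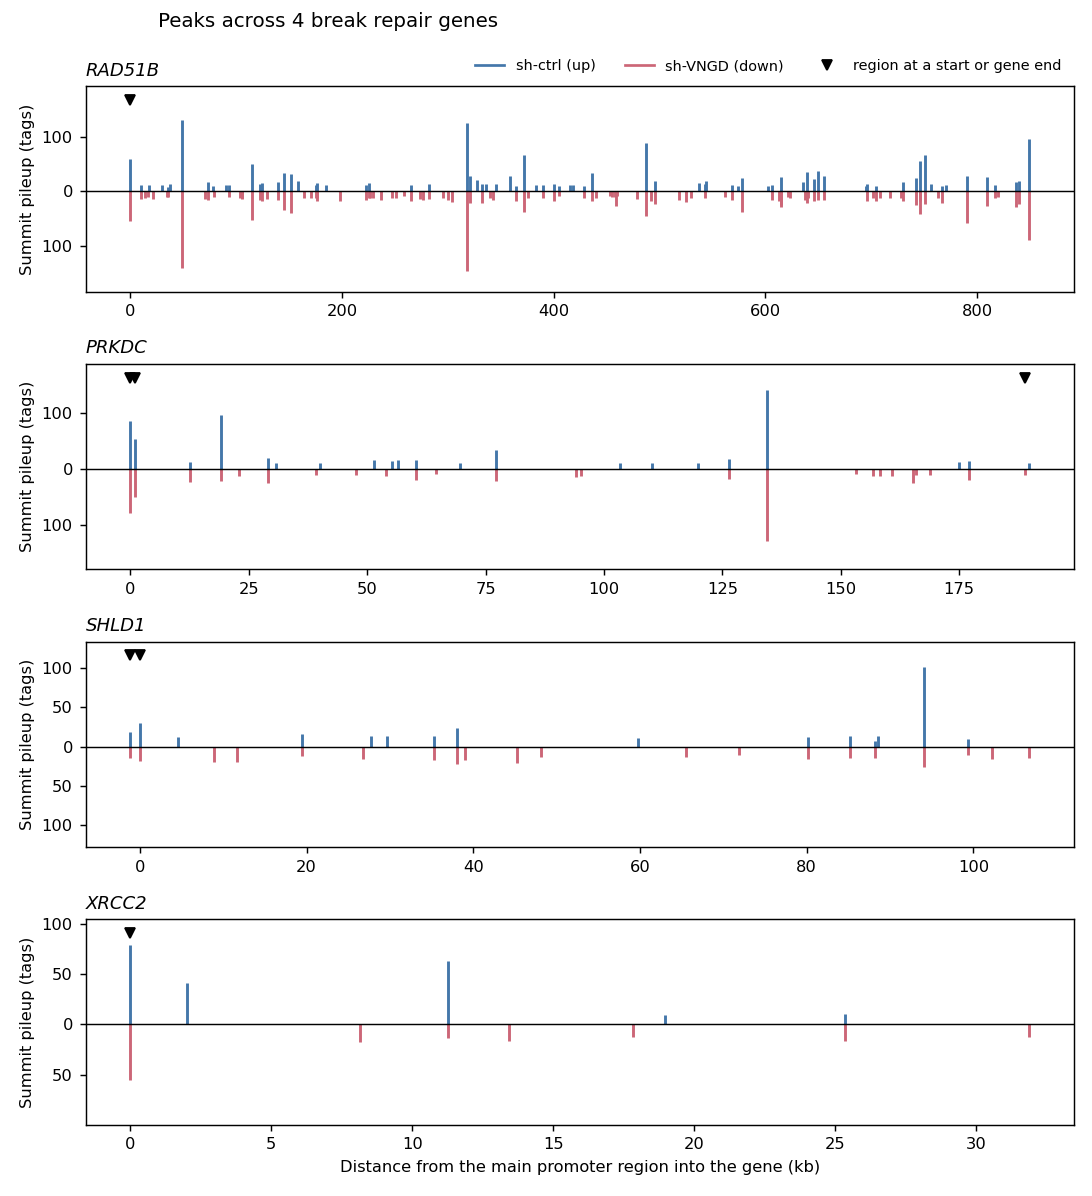
Summit pileup (tags) of all peaks in RAD51B, PRKDC, SHLD1 and XRCC2 by distance from the main promoter region (kb), with sh-ctrl drawn upwards and sh-VNGD downwards, and triangles over regions at a start or gene end. Tall sh-ctrl bars without an equal sh-VNGD bar stand at 19.0 kb in PRKDC, 94.0 kb in SHLD1 and 11.3 kb in XRCC2.

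Peaks called in 1 library only were mostly low. The 39 genes held 358 peaks in sh-ctrl and 508 in sh-VNGD, a ratio of 1.42, against 1.36 over all protein-coding genes. There were more in sh-VNGD in 30 genes, more in sh-ctrl in 5 and equal numbers in 4. Of the sh-ctrl peaks 30.7% overlapped no sh-VNGD peak, beside 27.2% over all genes. Of the sh-VNGD peaks 50.6% overlapped no sh-ctrl peak, beside 45.8%. No interval is given for these shares, since peaks of 1 gene, 105 of them in RAD51B in sh-VNGD, are not independent. With equal numbers of peaks from each library the shares were 41.6% and 39.5%, against 37.1% and 35.1% over all genes.

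Away from starts, 109 of the 553 regions (19.7%, against 18.0% over all genes) had a peak of sh-ctrl alone and 255 (46.1%, against 41.8%) a peak of sh-VNGD alone. The median pileup was 13 tags in each set, where the medians over all genes were 12 and 14. At least 20 tags were reached by 11 and 21 of them. The highest in sh-ctrl was in XRCC2, with 41 tags at chr7:152673974-152674240, 2.0 kb inside the promoter, followed by RAD54L with 32 at chr1:46271634-46271946. The highest in sh-VNGD was in RAD54B, with 36 tags at chr8:94473199-94473406, followed by RAD51B with 29 at chr14:68434574-68434935. The others of at least 20 tags in sh-ctrl were 3 in RAD51B, 2 each in RAD51C and RAD54B, and 1 each in XRCC6 and POLM. In sh-VNGD, RAD54B held 4 in all, RAD51B and RAD52 held 3 each, and BRCA2, NBN, BLM, RAD51D, RPA3, PRKDC, XRCC4, LIG4, SHLD1, SHLD2 and SHLD3 held 1 each. Lack of a called peak does not mean that no tags were there, because calling depends on the local background.

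RAD51B, the longest gene at 863 kb, had the most peaks, with 75 in sh-ctrl and 105 in sh-VNGD, followed by PRKDC with 21 and 26. POLL had 1 in each. Per 100 kb, the median over the 39 genes was 17.8 regions, against 16.5 over all protein-coding genes, with a range from 7.47 in POLL to 36.0 in PAXX. XRCC4, the next longest at 297 kb, had 8.97 regions per 100 kb and no shared inner region of at least 30 tags.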

How the data were processed

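ATAC-seq was measured in 1 sh-ctrl and 1 sh-VNGD library. Per the file headers, the authors called peaks on each library separately with MACS 2.1.0.20150731, with tags shifted by 100 bp and extended to 200 bp, 1 tag kept per position, a q cutoff of 0.05 and a local background window of 10000 bp. Bowtie2 2.2.5, MACS2 2.1.2 and deepTools are named per the submitters' processing notes. The deposited pileup is a signal, the whole number of tags at each summit. The deposited fold enrichment is a ratio over local background, computed per peak by the authors, as are the deposited −log10 q and −log10 p.

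Peaks on chromosomes 1 to 22, X and Y that overlapped by at least 1 bp were merged into regions. A promoter was the region with the highest scaled pileup within 1000 bp of a RefSeq start. The outer 5′ bound was added as a start after the peaks had been seen, because RAD51B and RBBP8 lacked it. Genes without a table start were given their outer ends. Ratios are log2 pileup ratios with exact Clopper-Pearson 95% intervals for a ratio of counts. The intervals were tested on simulated independent counts only, without the choice of a summit in each library or the removal of repeated positions. Tags in the local window of 10 kb were computed from pileup and fold enrichment. The genes and lists were chosen with earlier results of these data known. Named genes are those past 1.5-fold or with an interval to 1 side, those with several promoter regions, the extremes of each role, inner regions past 1.5-fold with at least 30 tags, and regions in 1 library only with at least 20. Remaining genes were added so that every member has its values. Of the local-window estimates, 39.6% in sh-ctrl and 40.2% in sh-VNGD sat at a genome-wide floor. Python 3.11.15, pandas 2.3.3, numpy 2.4.6, SciPy 1.17.1 and Matplotlib 3.10.9 were used.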

Additional observations from a re-analysis of the deposited data

How the results depend on the processing

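No paired analysis was possible because each group had 1 library, and for the same reason no library could be left out. All 39 genes kept a promoter peak in both libraries except 1 with a 500 bp window, and likewise 1 with at least 30 tags or without the outer 5′ bound as a start. The 2 genes at least 1.5-fold lower became 16 with no centring on all genes and 0 by tags in the local window. With no centring the median of the 39 was −0.56. The count at least 1.5-fold higher rose from 0 to 1 by fold enrichment (PAXX), to 1 by tags in the local window (RPA3), and to 2 by the sum of pileups in a region (RAD50 at 0.64 and PRKDC at 0.65). Intervals wholly below numbered 1 with a 500 bp window, 1 with a −log10 q of at least 5, 1 with at least 30 tags and 25 with no centring. They numbered 3 by the sum of pileups and 3 when centred on genes of similar pileup. Intervals wholly above numbered 3 by the sum of pileups and 1 when centred on genes of similar pileup. The sum of pileups also turned BRCA2 to 0.51 and PAXX to −0.54. This sum adds the pileup of every peak called in a region. The promoter regions of RAD50 and BRCA2 each held 1 called peak in sh-ctrl and 2 in sh-VNGD. PAXX had 3 peaks in sh-ctrl and 2 in sh-VNGD over its 2 regions. By tags in the local window SHLD1 turned from −0.74 to 0.15. Beyond these numbers of peaks, the causes of the shifts were not tested.

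With equal numbers of peaks, the share without an overlap was 41.6% for sh-ctrl and 39.5% for sh-VNGD (37.1% and 35.1% over all genes). Inner regions at least 1.5-fold lower numbered 11 by fold enrichment (28.9%, against 11.4% over all genes), 12 with a −log10 q of at least 5 (34.3%, against 18.7%), and 14 by tags in the local window (36.8%, against 18.1%). Each of these settings kept the filter of at least 30 tags in either library. In the main setting 12 of the 15 low regions passed it through sh-ctrl alone, so these counts describe a selected set. With no filter on pileup 23 of 189 were lower and 13 higher (12.2% and 6.88%, against 12.1% and 11.1%). Those above numbered 0 by tags in the local window, against 2.25% of all regions. They numbered 3 (7.89%, against 14.6%) when centred on regions of at least 30 tags, where 15 (39.5%, against 15.6%) lay below, again with the filter kept. The local window, the start rule, that centring and the change of filter were chosen after seeing the data. Depth limits the lower promoters: with 25 and 29 tags, the RPA3 interval ran from −0.61 to 1.05, so a difference of 1.5-fold there was not detectable at this depth.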

Other observations

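Within RAD51B, regions at the starts of other genes also had values of their own. The region at chr14:68610396-68610790, at the start of LOC107984016, had 29 tags in sh-ctrl against 59 in sh-VNGD. The region at chr14:68628730-68629348, at the start of LOC100996664, had 26 and 27. In RAD54B, the region at chr8:94436850-94437209, which overlaps FSBP, had 26 and 28 tags.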
